A study of Mus musculus with 8 samples.

Results

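Cytosolic ribosomal protein genes encode the protein subunits of the ribosome that works in the cytoplasm, and their RNA was compared between oral epithelium of germ-free and of specific pathogen-free (SPF) mice. Members were the protein-coding genes of the deposited count table whose symbol has the form of a large-subunit (Rpl), small-subunit (Rps), P-stalk (Rplp) or laminin-receptor (Rpsa) ribosomal protein gene. The rule used names only, with no measured value, and found 80 members among 22911 genes, 48 of the large and 32 of the small subunit. They lay on 19 chromosomes, with 14 of them on chromosome 7. The rule also takes in Rpl7l1, Rpl22l1 and Rps27l, paralogs of the core genes Rpl7, Rpl22 and Rps27.

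Epithelial cells sorted by flow cytometry after enzymatic separation of the buccal epithelium, the lining of the cheek, came from adult C57BL/6 mice, an inbred laboratory strain. The groups were 4 libraries from germ-free mice, which are raised without microorganisms, and 4 from SPF mice, which carry a resident microbiota free of listed pathogens. The labels call all animals wild type and untreated before the tissue was taken, and give no sex, batch or facility. They do not state that each library is a separate animal, so the p-values measure the spread between these libraries.

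A ribosome is built from ribosomal RNA and from roughly one copy of each ribosomal protein, so cells make these proteins in near-equal numbers. In vertebrates their messenger RNAs start with a run of cytosines and thymines (the 5′ terminal oligopyrimidine, or TOP, motif), through which the kinase complex mTORC1 and the RNA-binding protein LARP1 set how strongly the messages are translated and how long they last. In a stratified epithelium such as the cheek lining, cells divide in and near the basal layer, and dividing cells must make new ribosomes.

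The runs are shown for Rps6 and for some of the members with strong or weak differences, with Rpl36 and Rps27l not among them. They come from RefSeq windows on GRCm38.p6 that reach from 250 bases before to 50 bases after an annotated start. Each sequence is written 5′ to 3′ on the strand of the gene. Capitals mark the longest C/T run that begins between 50 bases before and 30 bases after that start. The genes shown were chosen after their values were seen.
Rpl13a (chr7:45128716-45128768, minus strand): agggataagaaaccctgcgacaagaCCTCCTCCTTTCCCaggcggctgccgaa
Rps7 (chr12:28635917-28635946, minus strand): cttccgctgtccccaCCTCTTTTCTTCCgc
Rps23 (chr13:90923126-90923155, plus strand): ttcccgcaatgccttgtgggTCCTTCCTgc
Rplp2 (chr7:141447621-141447670, plus strand): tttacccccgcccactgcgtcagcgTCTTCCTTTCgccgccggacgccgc
Rps6 (chr4:86857344-86857393, minus strand): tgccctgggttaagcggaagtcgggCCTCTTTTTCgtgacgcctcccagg
Rps10 (chr17:27635220-27635272, minus strand): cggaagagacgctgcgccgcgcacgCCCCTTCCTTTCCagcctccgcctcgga
Rpl22l1 (chr3:28805484-28805533, plus strand): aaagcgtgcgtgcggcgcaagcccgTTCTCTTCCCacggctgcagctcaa
Rpl7l1 (chr17:46782667-46782706, minus strand): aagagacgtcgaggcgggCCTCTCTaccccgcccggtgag
Rpl24 (chr16:55966225-55966259, plus strand): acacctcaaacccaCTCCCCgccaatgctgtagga

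The run spans 14 bases in Rpl13a, 13 in Rps7 and in Rps10, and 10 in Rplp2, Rps6 and Rpl22l1. It is 8 bases in Rps23, 7 in Rpl7l1 and 6 in Rpl24. The run covers the annotated start itself in Rps6, Rplp2 and Rps10, and begins at position 3 in Rpl13a and 2 in Rpl22l1, counted from 1 at the start. It begins farther away in the others, at position 23 in Rps7, 25 in Rps23, -32 in Rpl7l1 and -36 in Rpl24, so the marked stretch is not at the annotated 5′ end of those messages. Windows were found for 60 of the 80 members, giving 71 windows for alternative starts. A C/T run of at least 8 bases on the sense strand, within 50 bases of the start on either side, was in 78.9% of the members' windows and in 35.7% of all 32851 windows. The letters CTTTCC, which lie inside many of these runs, occurred on the sense strand of the same stretch in 29.6% of the members' windows and in 4.69% of all windows. CCGGAAG, searched on both strands of all 300 bases, was in 36.6% of the members' windows and in 8.86% of all. CACGTG, searched likewise, was in 11.3% of the members' windows and in 7.15% of all, and TATAAA, on the sense strand within 50 bases of the start, in 7.04% and 3.40%. These shares describe letters in annotated windows and not factor binding.

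RNA of the ribosomal protein genes was at a lower level in germ-free than in SPF libraries for nearly every member, by a similar small amount, and for 1 member, Rpl13a, the difference passed the test. The median log2 fold change, germ-free over SPF, was -0.22, a median change of -14.1%, and 78 of 80 members lay below 0. Over all 15098 genes tested the median was 0.02 and 47.1% lay below 0. The fold change is the difference between groups fitted by edgeR's quasi-likelihood test on the deposited counts, and a gene is called at a Benjamini-Hochberg adjusted p under 0.05 over all genes tested. All 80 members passed the filter on low counts.

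Of the 80 members, 1 was called lower and 0 higher, where 4.18% of all tested genes were called, 2.33% lower and 1.85% higher. A further view without adjustment gave 43 members lower at an unadjusted p under 0.05, against 9.53% of all genes, and 0 members higher, against 9.95%. Every germ-free library lay below every SPF library for 22 members, or 27.5%, where the same held for 6.84% of all genes. No member had all germ-free libraries above all SPF libraries, against 6.24% of all genes. Members vary together from library to library, so these counts are not 80 separate observations. The middle of the range was narrow, with the 10th to 90th percentiles at -0.30 and -0.15 and a median SE of 0.105.

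**Figure D1:**
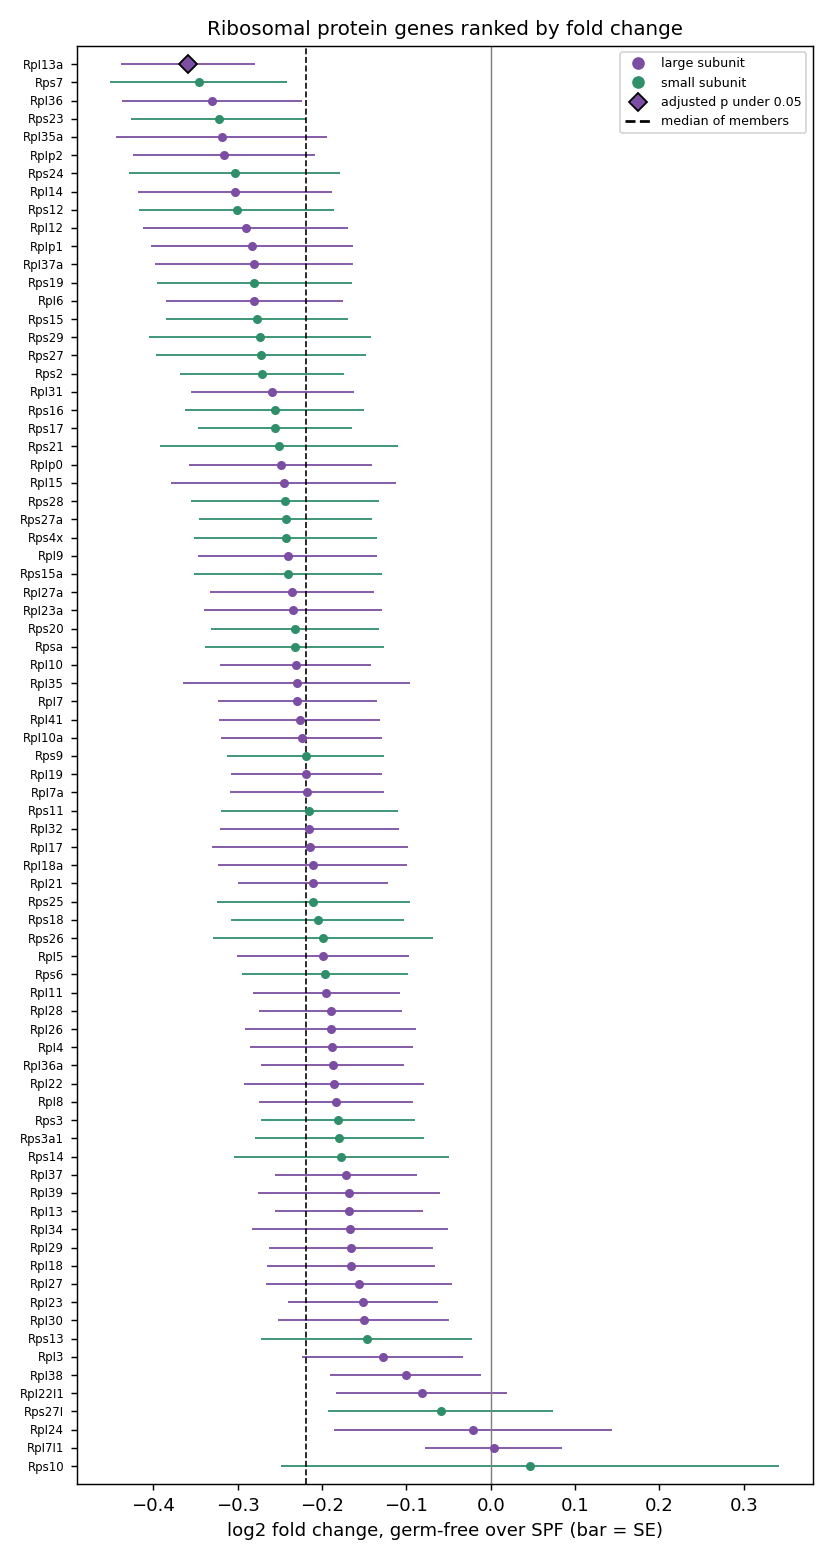
Log2 fold change of 78 of the 80 ribosomal protein genes, germ-free over SPF, on the horizontal axis, with members ranked down the page; points are fitted values, bars 1 SE, colours the subunit, and the dashed line the median of all 80, -0.22. The diamond marks Rpl13a, the only member called, and 73 of the points lie between -0.36 and -0.1.

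A pair of libraries stood apart from the rest. Germ-free library 2 lay below the mean of both groups for all 80 members and was the lowest of the 8 libraries for 72 of them. SPF library 1 lay above that mean for all 80 and was the highest for 74. Their median deviations from the mean of both groups, on the scale of log2(CPM + 1), were -0.34 and 0.29, where CPM is a gene's count scaled to a common library size with the TMM factors of edgeR. The other germ-free libraries, 1, 3 and 4, had median deviations of -0.04, -0.02 and -0.06, and SPF libraries 3, 4 and 5 had -0.01, 0.09 and 0.07. SPF library 3 thus sat with the germ-free libraries and not with the other SPF libraries.

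With both outlying libraries left out, a comparison chosen after these values were seen, the members' median fold change was -0.11 on the log2 scale and 74 of 80 lay below 0. The number lower at an unadjusted p under 0.05 was then 7, against 43 with all libraries. It was 13 without germ-free library 2 alone and 11 without SPF library 1 alone. Rpl13a was still called without both, at an adjusted p of 0.0279, where 2.4% of all genes were called lower. The same 22 members had separate groups without both, which leaving libraries out cannot undo, while the share of all genes with separate groups in this direction was 12.3%.

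**Figure D2:**
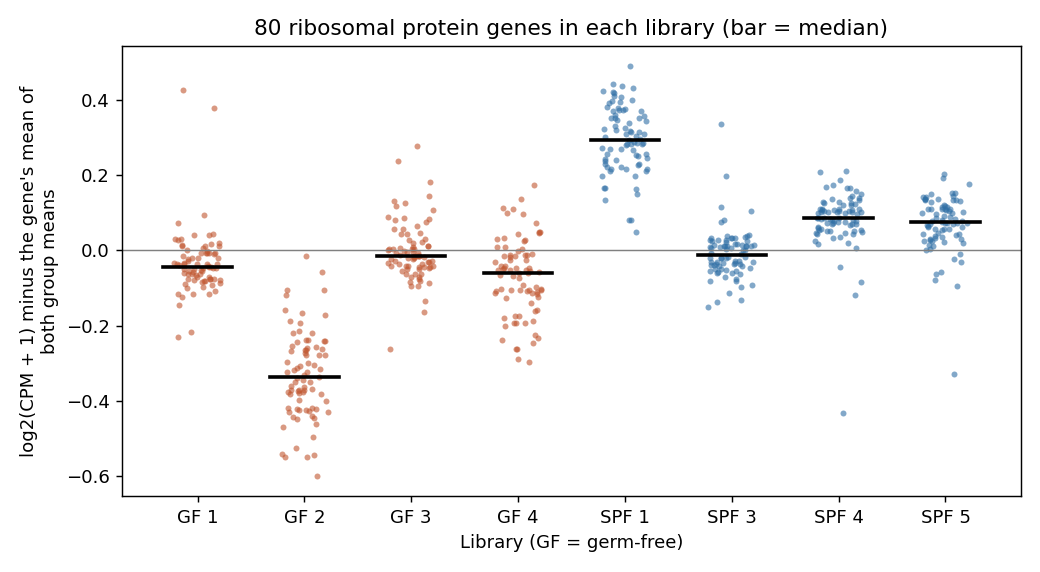
Deviation of each ribosomal protein gene from the mean of both group means, in log2(CPM + 1), by library; each point is 1 of the 80 members and the bar is the median. Germ-free library 2 sits lowest at -0.34 and SPF library 1 highest at 0.29, and the medians of the other 6 libraries lie between -0.06 and 0.09.

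The share of all gene counts taken by the members was likewise lowest in germ-free library 2 and highest in SPF library 1. It was 6.18, 5.06, 6.37 and 6.41% in germ-free libraries 1 to 4, and 7.62, 6.35, 6.79 and 6.91% in SPF libraries 1, 3, 4 and 5. The groups overlapped, since SPF library 3 was below germ-free libraries 3 and 4. The means were 6.01 ± 0.64% in germ-free and 6.92 ± 0.526% in SPF libraries (SD, n = 4 each), a difference of -0.913 percentage points, which became -0.363 without germ-free library 2 and SPF library 1. The large subunit took 3.73 ± 0.388% of counts in germ-free and 4.26 ± 0.311% in SPF libraries, and the small subunit 2.28 ± 0.253% and 2.66 ± 0.215%. In these bulk samples, fewer cells of a type and less RNA per cell cannot be told apart.

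Library totals ran between 10430507 and 15524731 counts in the germ-free group and between 10260264 and 14730960 in the SPF group. The basal keratinocyte markers, all 7 detected and none called, summed to between 27886 and 30403 CPM in germ-free and between 29788 and 31749 CPM in SPF libraries. Within the list, Krt5, Krt14, Krt15 and Trp63 had lower means in germ-free libraries, and Itga6, Itgb4 and Col17a1 had higher means. Krt14 averaged 8256 CPM in germ-free and 9943 CPM in SPF libraries, and Col17a1 4352 and 3647 CPM. The 8 suprabasal markers, with 1 called lower, summed to 19014, 14376, 23061 and 21333 CPM in germ-free libraries 1 to 4 and to 25291, 19245, 16900 and 19084 CPM in SPF libraries 1, 3, 4 and 5. Germ-free library 2 was thus lowest and SPF library 1 highest for this list too. The 7 fibroblast markers summed to 54.1, 77.6, 543 and 65.4 CPM in germ-free libraries 1 to 4, and to between 31.4 and 57.7 CPM in SPF libraries. The 6 endothelial markers, 2 of them called higher, summed to 9.93, 25.7, 85.8 and 9.75 CPM in germ-free libraries and to between 2.77 and 7.10 CPM in SPF libraries, so germ-free library 3 was the highest for both lists. Of the 8 leukocyte markers, 2 passed the filter on low counts and 0 were called. This list summed to 2.87, 23.4, 12.9 and 8.27 CPM in germ-free libraries 1 to 4, with library 2 the highest. In SPF libraries it summed to between 3.15 and 5.80 CPM. The 5 Schwann cell markers, with 1 called higher, summed to between 66.3 and 84.6 CPM in germ-free and between 53.1 and 61.0 CPM in SPF libraries. The 5 salivary markers reached 86.4 CPM in germ-free library 4 and did not exceed 2.51 CPM in any other library. The part of these shifts in the result for the ribosomal protein genes was not tested.

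Among large-subunit members, Rpl13a was called. The Rpl13a protein sits on the outside of the large subunit, in human cells it has also been described outside the ribosome in a complex that blocks translation of inflammatory messages, and its gene carries small nucleolar RNAs in its introns. Rpl13a (ENSMUSG00000074129, GRCm38 chr7:45125558-45128761, minus strand) had 83.8, 91.5, 81.9 and 90.6 CPM in germ-free libraries 1 to 4, against 113, 113, 114 and 106 CPM in SPF libraries 1, 3, 4 and 5. The groups did not overlap, and the highest germ-free value was below the lowest SPF value by more than the SD of either group. Its mean was 86.9 ± 4.83 CPM in germ-free and 111.5 ± 3.63 CPM in SPF libraries (SD, n = 4 each), a log2 fold change of -0.36 ± 0.079 (SE) with an adjusted p of 0.0227 by edgeR. Unlike most members, its lowest germ-free value was not in library 2, nor its highest SPF value in library 1. The call was lost without germ-free library 3 (adjusted p = 0.0686), without SPF library 3 (0.0721) and without SPF library 4 (0.0671).

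Rpl36, another large-subunit protein, had 476, 394, 504 and 444 CPM in germ-free libraries, against 683, 514, 545 and 542 CPM in SPF libraries. The groups were separate, but by little, with germ-free library 3 just below SPF library 3. Its log2 fold change was -0.33 ± 0.107, with an adjusted p of 0.102.

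The P stalk is the flexible arm of the large subunit that recruits the elongation factors, with Rplp0 and Rpl12 at its base and Rplp1 and Rplp2 as its arms. None of its 4 genes was called, all 4 were lower at an unadjusted p under 0.05, and their median log2 fold change was -0.29. Rplp2 had 1693, 1375, 1780 and 1556 CPM in germ-free libraries, against 2335, 1811, 1941 and 1886 CPM in SPF libraries. These groups did not overlap, and the fold change was -0.32 ± 0.107 (adjusted p = 0.118). Rplp1 averaged 1756 ± 186 CPM in germ-free and 2137 ± 350 CPM in SPF libraries, at -0.28 ± 0.12. Rpl12 was at 1198 ± 179 and 1465 ± 189 CPM (-0.29 ± 0.121), and Rplp0 at 2004 ± 224 and 2382 ± 273 CPM (-0.25 ± 0.108). The groups of Rpl12 were separate, but by little, with germ-free library 4 at 1319 CPM and SPF library 3 at 1327 CPM. For all 4 genes, germ-free library 2 was the lowest and SPF library 1 the highest of all libraries.

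Rpl5 and Rpl11 form, with 5S ribosomal RNA, the particle that can bind and inhibit the p53 ligase Mdm2 when ribosome assembly fails. Rpl5 averaged 1842 ± 205 CPM in germ-free and 2114 ± 179 CPM in SPF libraries, a log2 fold change of -0.20 ± 0.102 (adjusted p = 0.305). Rpl11 averaged 440 ± 24.5 CPM in germ-free and 503 ± 44.0 CPM in SPF libraries, at -0.19 ± 0.087 (adjusted p = 0.237). Neither gene had separate groups. The proteins that line the tunnel through which the new chain leaves, Rpl4, Rpl17 and Rpl39, lay at -0.19 ± 0.096, -0.21 ± 0.116 and -0.17 ± 0.108, with 0 of 3 called or lower at an unadjusted p under 0.05. Rpl8, a protein near the catalytic centre, and Rpl26 were at -0.18 ± 0.092 and -0.19 ± 0.102. For Rpl26 the germ-free values were 1194, 906, 1196 and 1193 CPM, and the SPF values 1370, 1204, 1259 and 1288 CPM. Germ-free library 2 stood far below the others there, and the remaining gap between the groups was narrow.

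Among small-subunit members, whose median was -0.24, 0 of 32 were called and 19 were lower at an unadjusted p under 0.05. For the large subunit the median was -0.21, with 1 of 48 called and 24 lower at an unadjusted p under 0.05. Groups were separate, with germ-free lower, for 6 small-subunit and 16 large-subunit members. Over all genes tested, 2.33% were called lower, 9.53% were lower at an unadjusted p under 0.05 and 6.84% had separate groups in this direction.

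Rps7, a small-subunit protein needed for the maturation of ribosomal RNA, had 1091, 911, 1111 and 1024 CPM in germ-free libraries, against 1571, 1224, 1207 and 1256 CPM in SPF libraries. SPF library 1 stood apart, and the other SPF values still lay above every germ-free value. The log2 fold change was -0.35 ± 0.105 with an adjusted p of 0.0806. Rps23, which lies at the decoding centre where codons are read, averaged 1138 ± 123 CPM in germ-free and 1423 ± 146 CPM in SPF libraries, with separate groups, at -0.32 ± 0.104 (adjusted p = 0.0981). Both genes missed the threshold by edgeR and passed it by DESeq2, which called 6 members lower, among them Rpl13a, Rps7, Rps23, Rpl36 and Rplp2, where it called 4.46% of all genes lower. By limma voom 2 members, with Rpl13a among them, were called lower, where 3.61% of all genes were. The authors' deposited table, fitted as SPF over germ-free, called 4 members, all higher in SPF, among them Rpl13a, Rps7 and Rps23, where 2.63% of its genes were called in that direction.

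Rps6 encodes the small-subunit protein that S6 kinase phosphorylates downstream of mTORC1. It had 941, 768, 925 and 912 CPM in germ-free libraries, against 1152, 906, 977 and 1027 CPM in SPF libraries. The groups overlapped through SPF library 3, and the fold change was -0.20 ± 0.099 (adjusted p = 0.293). Rpsa, also known as the laminin receptor, was at 2455 ± 332 and 2884 ± 181 CPM in germ-free and SPF libraries (-0.23 ± 0.106). Rps27a, made as a fusion of ubiquitin and a small-subunit protein, was at 528 ± 62.5 and 625 ± 61.0 CPM (-0.24 ± 0.102), and Rps12 at 1150.2 ± 167 and 1417 ± 155 CPM (-0.30 ± 0.115). None of these 4 was called, and their groups overlapped.

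**Figure D3:**
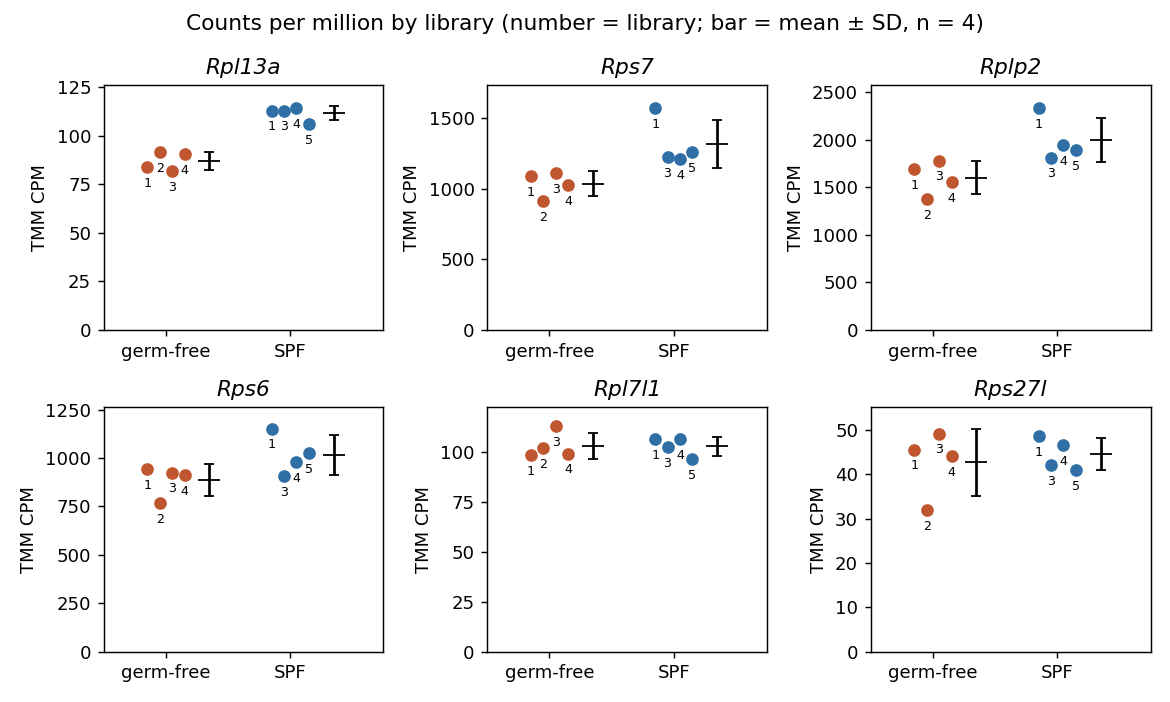
CPM of Rpl13a, Rps7, Rplp2, Rps6, Rpl7l1 and Rps27l in the germ-free (left) and SPF (right) libraries; points are libraries with their numbers and the bar is mean ± SD, n = 4. Groups are separate for Rpl13a, Rps7 and Rplp2, and overlap for Rps6, Rpl7l1 and Rps27l.

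The members closest to 0 or above it were Rps10, Rpl7l1, Rpl24, Rps27l and Rpl22l1, which include the 3 paralogs named above that the rule takes in. Rps10 was at 9.19, 5.54, 8.51 and 5.39 CPM in germ-free libraries, against 8.85, 8.90, 4.81 and 5.24 CPM in SPF libraries. The spread within each group exceeded the difference of 0.05 ± 0.295 on the log2 scale. Rpl24 was at 33.5, 18.8, 23.2 and 23.7 CPM in germ-free libraries, against 26.2, 26.6, 22.7 and 25.2 CPM in SPF libraries, at -0.02 ± 0.165. Both encode core proteins, yet both were counted at levels far below most members. Rpl7l1 averaged 103 ± 6.59 CPM in germ-free and 103 ± 4.84 CPM in SPF libraries, a log2 fold change with an SE of 0.081 and an unadjusted p of 0.967.

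Paralogs are gene copies that can replace a core protein or act apart from it, and the count of a paralog over its core partner does not depend on library size. The ratio can still follow a trend with transcript length, which was not tested for these pairs. The transcript of Rpl7l1 has 2606 bases and that of Rpl7 has 1163. Rpl7l1 had 7.81, 9.57, 8.56 and 7.70 counts per 100 counts of Rpl7 in germ-free libraries, against 6.86, 7.79, 7.32 and 6.59 in SPF libraries. SPF library 3 overlapped with germ-free library 4, and the means were 8.41 ± 0.863 and 7.14 ± 0.528, a log2 ratio of 0.23 (exact two-sided permutation p = 0.0571, adjusted over 3 pairs 0.171). Rps27l, a homolog of Rps27 induced by p53 in human cells, had 11.9 ± 1.34 in germ-free and 10.4 ± 0.778 in SPF libraries per 100 counts of Rps27, at 0.20 (exact permutation p = 0.143, adjusted 0.214). Rpl22l1 had 6.19 ± 1.07 in germ-free and 5.67 ± 0.411 in SPF libraries per 100 counts of Rpl22, at 0.11 (exact permutation p = 0.543). None of these p-values passed 0.05, where the smallest that 4 against 4 libraries allow is 0.0286. The log2 ratio of Rpl22l1 to Rpl22 was 0.0070 without germ-free library 2 and 0.21 without germ-free library 1. Rpl3l, Rpl10l and Rpl39l had no row under these symbols in the deposited count table, so no ratio could be formed for them.

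Levels per transcript length differed widely between members. On the scale of mean CPM per kilobase over all 8 libraries, Rplp1 stood highest at 3901, followed by Rps12 at 2599, Rpl26 at 2284 and Rpl8 at 2094, and the median of the members was 935. The lowest were Rps10 at 7.95, Rpl24 at 36.9, Rpl7l1 at 39.5 and Rps27l at 87.4, and the called Rpl13a was at 94.8. The transcript of each gene was chosen by annotation rank and then by shortness, and this choice alone moves such levels. Ribosomal protein genes have many processed copies in the genome, and reads that fit several places may be lost or split. In the median member 56.1% of the 50-base stretches of the transcript also occur in another annotated gene. That share was 57.4% for Rpl13a, 56.8% for Rps10, 81.7% for Rpl24 and 98.6% for Rps27. Across the 80 members, which are not independent, Spearman's rho was 0.04 between level per kilobase and this share and -0.04 between the log2 fold change and this share. Between the log2 fold change and the level per kilobase rho was -0.29. The 9 members under 20% shared had a median log2 fold change of -0.19, and the 18 members at 80% or more had -0.22.

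**Figure D4:**
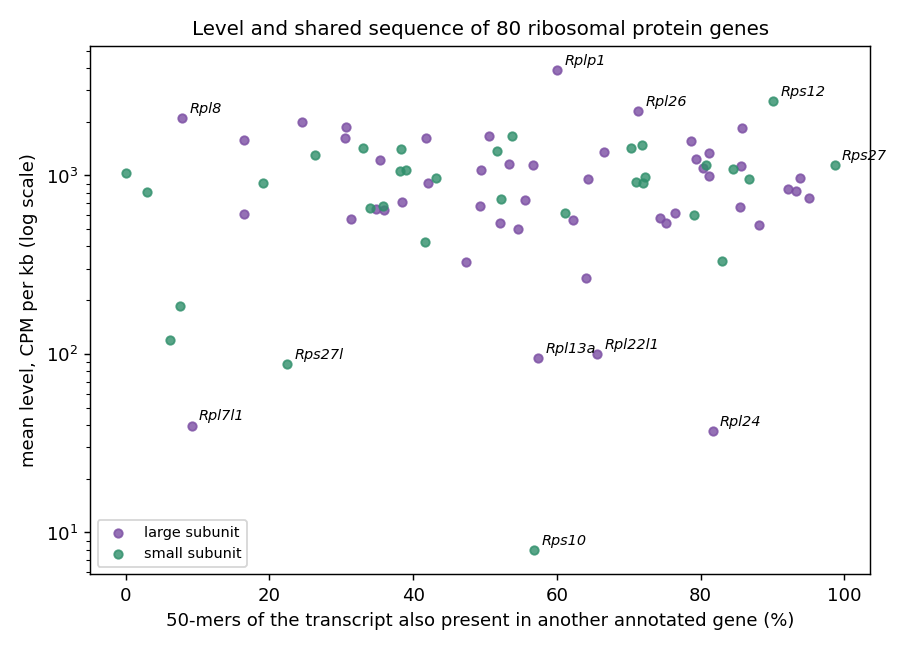
Mean level of each of the 80 members in CPM per kilobase (log axis) against the percent of its transcript's 50-base stretches found in another annotated gene; colours mark the subunit. Levels run between 7.95 for Rps10 and 3901 for Rplp1, and low levels occur at low and at high shares.

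Members have short transcripts, and fold changes of other genes followed transcript length. Non-member genes were split by length into 5 groups of near-equal size, and their median log2 fold changes were -0.08, -0.02, 0.01, 0.05 and 0.12 in order of length. Of the members, 72 had transcripts in the range of the shortest group, which runs between 102 and 1436 bases. Across the 80 members, Spearman's rho between the log2 fold change and transcript length was -0.03. The median deviation of the shortest group minus that of the longest was -0.04, -0.22, -0.02 and -0.07 on the log2 scale in germ-free libraries 1 to 4, and 0.13, 0.01, 0.15 and 0.09 in SPF libraries 1, 3, 4 and 5. It was negative in all germ-free libraries and positive in all SPF libraries, and germ-free library 2 was again the lowest. When each library's trend with length over non-members was taken into the fit, an alternative chosen after the result was seen, the members' median was -0.12 and 74 of 80 lay below 0. Under it 0 members were called, 12 were lower at an unadjusted p under 0.05, and Rpl13a was at -0.27 with an adjusted p of 0.106, where 2.09% of all genes were called lower. Non-member genes at 100 CPM or more, 1985 in number, had a median of -0.02.

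**Figure D5:**
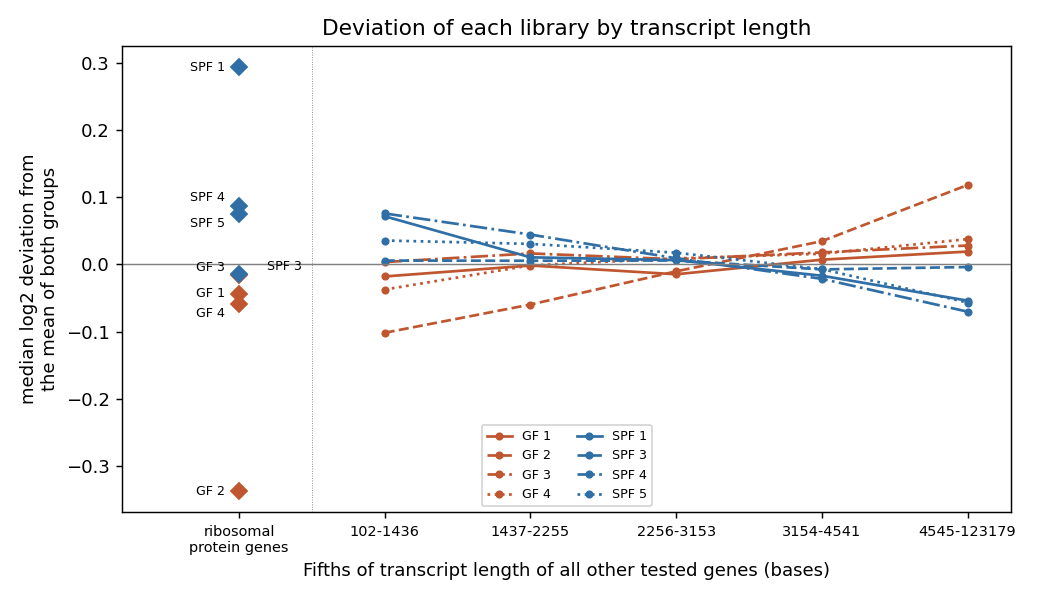
Median log2 deviation of each library from the mean of both groups, for the 80 ribosomal protein genes (diamonds) and for 5 groups of all other tested genes by transcript length in bases (lines). Germ-free library 2 rises with length and 3 of the 4 SPF libraries fall with it, while SPF library 3 is nearly flat.

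The ribosomal proteins whose symbols fall outside the name rule gave 0 called of 4. Fau, a fusion of a ubiquitin-like protein and a small-subunit protein, was at 615 ± 52.3 CPM in germ-free and 778 ± 109 CPM in SPF libraries (-0.34 ± 0.106, adjusted p = 0.0895), with separate groups. Rack1, a scaffold on the small subunit, was at 1435 ± 143 and 1715 ± 220 CPM (-0.26 ± 0.108), also with separate groups. Without germ-free library 2 and SPF library 1, Fau was at -0.19 and Rack1 at -0.11. Pseudogenes of ribosomal proteins, copies that mostly lack a function, took 0.0179 ± 0.00181% of counts in germ-free and 0.0196 ± 0.00140% in SPF libraries. Of the 59 that passed the filter among 160, 0 were called and the median was -0.20. The 2 with the smallest p, Rpl19-ps9 at -0.57 ± 0.25 and Rpl31-ps14 at -1.29 ± 0.58, missed the threshold.

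Genes that make or use ribosomes were read from lists of known function, with calls in both directions and none called in most lists. Over all genes tested 1.85% were called higher, 2.33% were called lower and 47.1% lay below 0. RNA polymerase I, which transcribes the ribosomal RNA genes, had 0 of 20 genes called and a median of 0.03. Its subunit gene Polr1b was at 50.9 ± 4.88 CPM in germ-free and 38.0 ± 4.38 CPM in SPF libraries (0.42 ± 0.116, adjusted p = 0.0581), and Rrn3, an initiation factor for it, at 0.22 ± 0.096. Small nucleolar RNP and nucleolar proteins had 0 of 14 called and a median of -0.02, with Npm1, a nucleolar chaperone, at -0.30 ± 0.095 and Dkc1, the pseudouridine synthase, at -0.09 ± 0.081.

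Of 35 assembly factors of the small subunit, 1 was called higher and 0 lower. Utp20, a scaffold of the early particle, rose to 125, 148, 131 and 139 CPM in germ-free libraries, against 92.3, 104, 111 and 88.0 CPM in SPF libraries. The groups did not overlap, and the log2 fold change was 0.46 ± 0.093 (adjusted p = 0.0152), while Utp3 was at -0.31 ± 0.085 (adjusted p = 0.0556). Of 42 assembly factors of the large subunit tested, 2 were called higher and 1 lower. Mdn1, a very large AAA ATPase that strips factors from the maturing particle, rose to 206, 274, 256 and 269 CPM in germ-free libraries, against 181, 181, 169 and 168 CPM in SPF libraries (0.52 ± 0.095, adjusted p = 0.00811). Nol9, a kinase that acts on the ribosomal RNA spacer, rose to 70.0 ± 1.70 CPM, against 53.4 ± 4.25 CPM (0.39 ± 0.093, adjusted p = 0.0319).

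Eif6, which keeps the large subunit from joining the small one too early, fell to 183, 187, 184 and 181 CPM in germ-free libraries, against 226, 219, 224 and 271 CPM in SPF libraries. The germ-free values lay close together and all below SPF, at -0.35 ± 0.085 (adjusted p = 0.0321). Transcript length differs among these genes, at 17959 bases for Mdn1, 8821 for Utp20, 2271 for Nol9 and 1500 for Eif6. With the length trend in the fit, Mdn1 (0.22, adjusted p = 0.146), Utp20 (0.31, 0.0718) and Eif6 (-0.29, 0.0745) were not called, and Nol9 was. Nol9 was not called without the filter on low counts (adjusted p = 0.0609), nor Eif6 when scaled by library size alone (0.0548). The call of Utp20 was also lost without SPF library 5 (adjusted p = 0.0511) and, as for Nol9, without germ-free library 2 and SPF library 1 together (0.0578 and 0.0654). Nol9 lost its call without any one of germ-free libraries 1, 3 or 4 or of the SPF libraries, and Eif6 without any one of germ-free libraries 1, 3 or 4 or of SPF libraries 3, 4 or 5. The adjusted p then lay between 0.0505 and 0.0987 for Nol9 and between 0.0528 and 0.0931 for Eif6.

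Other RNAs of the TOP class and elongation factors had 0 of 22 called and a median of -0.15, with 15 of 22 below 0, against 47.1% of all genes. The list also holds noncoding RNAs. Of these, Gas5, Snhg1, Snhg8 and Snhg12 lay above 0, at 0.13, 0.18, 0.32 and 0.34, and Snhg5 was at -0.003. The protein-coding genes Eef2, Eif3e and Eif4a2 also lay above 0, at 0.01, 0.04 and 0.19. Naca, a chaperone subunit that meets chains as they leave the ribosome, was at 761 ± 40.6 CPM in germ-free and 917 ± 61.7 CPM in SPF libraries (-0.27 ± 0.084, adjusted p = 0.0892), and at -0.17 with the length trend in the fit. Initiation factors had 0 of 30 called and a median of -0.11, with Eif1ax at -0.25 ± 0.095 and Eif2s3x at -0.21 ± 0.083. The mTORC1 and MYC list had 0 of 29 tested genes called and a median of 0.08, with Lamtor2, of the lysosomal anchor of mTORC1, at -0.34 ± 0.103 (adjusted p = 0.0775) and Mga, a partner of MAX, at 0.26 ± 0.081. With the length trend in the fit Mga was at 0.016. In the quality-control and stress list 1 of 20 tested genes was called higher. Usp10, a deubiquitinase that rescues stalled small subunits, rose to 113 ± 12.3 CPM in germ-free libraries, against 87.2 ± 4.80 CPM in SPF libraries (0.37 ± 0.093, adjusted p = 0.0404).

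The Usp10 call was lost with the length trend in the fit (adjusted p = 0.0666), without the filter on low counts (0.0731) and when any one library other than germ-free libraries 2 and 3 was left out, with adjusted p-values between 0.0509 and 0.131. Eif2ak4, the kinase that senses uncharged transfer RNA, was at 0.37 ± 0.13 and was not called. The 77 genes of mitochondrial ribosomal proteins, which serve a separate ribosome inside mitochondria, had 0 called, 61 below 0 and a median of -0.15, where 47.1% of all genes and 58.3% of non-members in the group of shortest transcripts lay below 0. Mrpl13 was at 37.7 ± 3.55 CPM in germ-free and 47.6 ± 3.67 CPM in SPF libraries (-0.34 ± 0.11). Mrps6 had 15.3, 17.0, 19.6 and 28.0 CPM in germ-free libraries, against 15.1, 10.3, 13.2 and 13.8 CPM in SPF libraries (0.61 ± 0.205). Neither passed the threshold, with adjusted p-values of 0.104 and 0.115. The mRNA of mitochondrial and cytosolic ribosomal proteins thus shared the sign of its median, and whether the 2 medians differ was not tested.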

How the data were processed

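The deposited table held raw read counts per gene for 8 libraries, made by the authors from a stranded total-RNA kit with ribosomal RNA depletion, per the labels' protocols. Per the submitters' processing notes the genome build was GRCm38 and the tools included DESeq2 1.22.2, HTSeq 0.6.0, TopHat2 2.1.1, cutadapt 1.18 and bcl2fastq 2.18.0.12, in no stated role. The strand setting and the treatment of reads that fit several places are not given in the sources used here, and counts of genes with processed copies are uncertain. The lowest sum of a gene over the libraries was 10. Per the file headers, the authors also deposited normalized signal (counts over 1 size factor per library), log2 fold changes of SPF over germ-free with their standard errors, a Wald score and p-values. Only the counts and the authors' calls were used.

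Counts were tested with edgeR 4.0.16 in R 4.3.3 (TMM, filterByExpr with minimum count 10 and total 15, robust quasi-likelihood F test, two-sided, group as the only term), with p-values adjusted over all 15098 genes. The SE was taken from the F statistic. The procedure was tested on simulated counts of independent genes with larger differences than those of the members. That test does not cover small differences in genes that vary together. Paralog ratios used an exact permutation test of log2 of counts plus 0.5. The fit was repeated with DESeq2 1.42.0, limma 3.58.1 voom, other size factors, no count filter, with each library left out and with a replicate block; 3 further fits were chosen after the results were seen (library size alone, germ-free library 2 and SPF library 1 both left out, and a length trend over non-members). Transcripts came from GENCODE M21, whose gene positions matched those of 99.0% of the deposited identifiers; the choice of transcript was changed after lengths were seen, and touches only lengths, levels per kilobase, shared stretches and the length trend. The members and lists were chosen with earlier results of these data known. The named members were those called, the 5 highest and 5 lowest fold changes, the 4 highest and 4 lowest levels per kilobase, the role lists, Rps6, Rps27a and Rpsa, and, in each other list, called genes or the 2 with the smallest p. The values of 2 members are not reported here, though they count in totals and medians.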

Additional observations from a re-analysis of the deposited data

Results flagged for a closer look

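In 9 of 100 groups of 4 libraries checked, 1 library stood farther from the other 3 than the 95% limit of Dixon's test, a limit that chance passes in about 5% of groups. In the germ-free group the lowest library lay apart for Rpl12 at 933 CPM (nearest 1259), Rpl26 at 906 CPM (nearest 1193), Rpl8 at 1476 CPM (nearest 1719), Rplp0 at 1671 CPM (nearest 2092) and Rps6 at 768 CPM (nearest 912), and in each of these it was library 2. The same library had the lowest share of counts in ribosomal protein genes, at 5.06% (nearest 6.18%). In the SPF group, library 1 was highest for Rps7 at 1571 CPM (nearest 1256). For Rpl13a the lowest SPF library was library 5 at 106 CPM (nearest 113). Eif6 was highest in SPF library 5 at 271 CPM (nearest 226). Members vary together, so these are not separate observations.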

How the results depend on the processing

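The members' median stayed below 0 in all 18 alternative fits, between -0.26 and -0.11, and 0 members were called higher in any of them. The number called lower was 6 by DESeq2, 2 by limma voom, 0 with the length trend, 0 with the replicate block, and 0 to 1 with 1 library left out. The number lower at an unadjusted p under 0.05, 43 as reported, was 60 without the count filter, 53 by DESeq2, 46 with TMM factors made without the members, 43 with DESeq2 size factors, 31 with upper-quartile factors, 25 scaled by library size alone, 16 by limma voom, 12 with the length trend, 9 with the replicate block, 7 without both outlying libraries, and 11 to 49 with 1 library left out. Over all genes, 1257 were called by DESeq2 (598 higher, 659 lower), 975 by limma voom (430 higher, 545 lower) and 333 with the replicate block (172 higher, 161 lower); with the length trend 183 were called higher, and with 1 library left out 284 to 688 were called (128 to 286 higher, 152 to 402 lower).

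The replicate block used numbers 1, 3 and 4, which both groups share. Germ-free library 2 and SPF library 5 had no partner and added nothing to the group difference in this fit. The effect of pairing was not separated from that of losing these libraries. The correlations of same-numbered libraries' deviations were 0.19, -0.08 and -0.07, and those of differently numbered libraries lay between -0.18 and 0.19. So few values cannot decide whether the numbers pair the libraries. Under it the members' median was -0.16, the smallest adjusted p 0.060, for Rpl13a, and Utp20, Mdn1, Nol9, Eif6 and Usp10 also lost their calls.

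Members near 0 changed sign. Rpl24 was at 0.0028 scaled by library size, 0.087 with the length trend, 0.074 with the block and 0.098 without both libraries; Rpl7l1 was at -0.0076 with TMM factors made without the members, -0.025 without the count filter and -0.023 with the block; Rps27l was at 0.021 by limma voom, 0.060 with the length trend, 0.021 with the block and 0.088 without both libraries; and Rpl22l1 was at 0.036 with the length trend. With 1 library left out the ranges were -0.22 to 0.091 for Rpl24, -0.043 to 0.020 for Rpl7l1, -0.11 to 0.19 for Rps10 (0.27 without both libraries) and -0.14 to 0.057 for Rps27l. The log2 paralog ratios kept their sign with a pseudocount of 5 and with 1 library left out, between 0.17 and 0.28 for Rpl7l1, 0.0070 and 0.21 for Rpl22l1, and 0.14 and 0.25 for Rps27l, with no p under 0.05. The cause was not tested. Depth limits Rps10 most, at 7.16 CPM in germ-free and 6.95 CPM in SPF libraries, with an SE of 0.295 against a members' median of 0.105.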
